A study of Populus tremula x Populus tremuloides with 12 samples.

Results

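A set of 132 genes was lowered moderately in leaves of hybrid poplar that overexpress MYB165. They were chosen by their own levels in these libraries, out of 33975 listed genes, so the decrease itself describes the choice and is not tested here. Levels are CPM, read counts of a gene relative to its library's size, which was scaled by the trimmed mean of M values (TMM). A gene was taken when its mean reached 2 CPM in at least 1 of the 4 groups, which 20321 genes did. On the scale of log2(CPM + 0.5), the mean of its greenhouse and sunlight differences between overexpressing and wild-type leaves had to lie above -2 and at or below -1, with each difference at or below -0.5. In each condition, all 3 overexpressing libraries had to lie below all 3 wild-type libraries.

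MYB proteins are transcription factors, and those of the R2R3 class often set how strongly the genes of phenolic synthesis are transcribed. MYB165 has been described in poplar as a repressor of the phenylpropanoid and flavonoid pathways, which turn phenylalanine into lignin precursors, salicinoids, anthocyanins and condensed tannins. In poplar leaves these pathways are known to respond to strong light. The files give gene IDs without names or descriptions, so no role is given to any gene below, and neither MYB165 itself nor markers of leaf tissue could be looked up.

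RNA was sequenced from leaves at plastochron positions 7 to 10 of Populus tremula x Populus tremuloides, clone INRA 353-38. All libraries are labelled as leaves, although the extraction text in the labels names hairy roots beside ground leaves, and without gene names the tissue could not be checked. Wild-type plants (WT) were compared with plants transformed by Agrobacterium with MYB165 in the vector pMDC32 (OE), which as background drives its insert from a constitutive viral promoter. All plants spent 1 month in a mist chamber and 2 months in the greenhouse, and 3 of the 6 plants of each genotype then spent 1 week outdoors in sunlight. The 4 groups are thus WT greenhouse, OE greenhouse, WT sunlight and OE sunlight, with 3 libraries each, named by group and plant number. Sunlight, 1 more week of growth and the other outdoor conditions cannot be told apart, and the sources used here do not give how many transgenic lines the OE plants represent.

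Libraries held between 5870132 and 27711999 gene counts. Before the results, a pair of libraries has to be set apart. In WT greenhouse 5, reads outside genes made up 32.2%, and in the other libraries they made up 16.4% at most. OE greenhouse 3 was the lowest of its group for 44.1% of tested genes and the highest for 37.7%, so it seldom lay in the middle. Where leaving out this pair changed a count or median of the set by much, the value without it is given. In whole leaves, fewer cells of a type and less RNA per cell cannot be told apart.

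The limits on the mean difference kept 232 of the 20321 genes, the limit on each difference 195, and the absence of overlap 132. Of the 20321 genes, 3.41% had all OE libraries below all WT libraries in both conditions. The level limit was passed by 42 of the 132 genes through WT groups alone, so those could not have entered without a difference. With the same limits, 114 other genes fell at or below -2 and are called strongly lowered here.

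At the stronger edge of the set, Potra001768g14372 had a mean difference of -1.999 (-0.68 in the greenhouse and -3.32 in sunlight). Potra195336g29036 had one of -1.99, and -1.98 in sunlight alone. Just beyond that edge, Potra001768g14376 had -2.02 and Potra174365g27716 had -2.04. At the weaker edge, Potra009086g34676 and Potra000595g04517 both had a mean difference of -1.01. Just outside, Potra000401g01889 and Potra001535g12744 lay at -0.9996 and -0.997. The edges are thus lines through a continuous range, and for Potra195336g29036, at 2.36 CPM in WT greenhouse, the value depended on the added constant: it was -1.47 with 1 in place of 0.5 and -2.49 with 0.25. The mean difference of Potra001768g14372 was likewise -1.73 with 1 and -2.26 with 0.25. Its greenhouse levels rest on 14 counts in WT and 5 in OE.

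**Figure D1:**
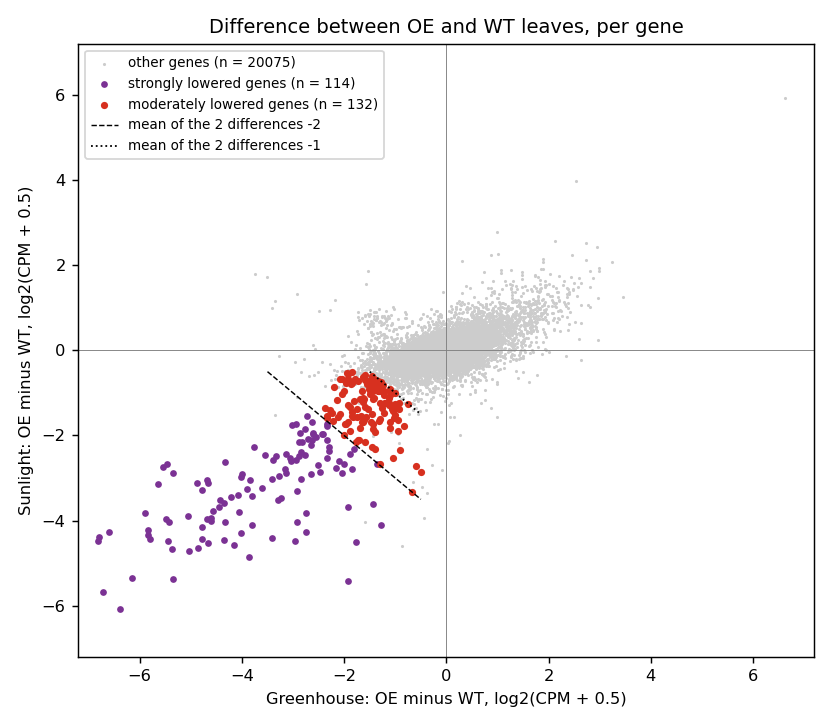
Difference between OE and WT in log2(CPM + 0.5), in the greenhouse (horizontal axis) and in sunlight (vertical axis), for the 20321 genes that reached 2 CPM in a group. The 132 moderately lowered genes (red) lie between the dotted and dashed lines and run on into the 114 strongly lowered genes (purple).

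The 132 genes ranged over 3 orders of magnitude in level. The median gene of WT leaves had 14.5 CPM in the greenhouse, or 11.6 CPM after sunlight. In OE leaves the medians were 4.29 CPM in the greenhouse, then 4.32 CPM after sunlight. Over all 22959 genes with enough counts to be tested, the medians lay between 11.6 and 11.9 CPM in the 4 groups. Levels above 100 CPM were reached by 13 of the genes in WT greenhouse and by 21 in WT sunlight. At the other end, 28 averaged under 1 CPM in OE greenhouse and 23 in OE sunlight, and 4 and 2 of them had fewer than 10 counts over the 3 libraries of that group.

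In the greenhouse the OE level of a gene was a median of 32.8% of the WT level, with a range over genes from 3.9% to 61.4%. In sunlight the median was 38% and the range 3.52% to 69.2%. The median log2 differences were -1.47 in the greenhouse and -1.24 in sunlight. As limma fold changes the medians were -1.70 and -1.36. The greenhouse one was -1.52 without OE greenhouse 3 and -1.57 without WT greenhouse 5, with the sunlight one still at -1.36. The counts that follow were not repeated without these libraries. For 84 genes the decrease was larger in the greenhouse, and for 48 it was larger in sunlight. The 2 differences lay within 0.5 of each other for 62 genes and more than 1 apart for 23, of which 17 had the larger decrease in the greenhouse. A difference above -1 was found for 11 genes in the greenhouse and for 47 in sunlight, so a gene could belong to the set on the strength of its greenhouse values.

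Summed over the 132 genes, WT leaves held 5384 ± 1143 CPM in the greenhouse, where OE leaves held 1872 ± 262 CPM (SD, n = 3 each). After sunlight the WT sum was 8022 ± 1383 CPM, and the OE sum was 2945 ± 379 CPM (SD, n = 3 each). The 114 strongly lowered genes had higher sums in WT, 13058 ± 4978 CPM before and 15362 ± 5009 CPM after sunlight, with lower ones in OE, 520.0 ± 58.0 and 1157 ± 300.1 CPM (SD, n = 3 each). Their OE levels were a median of 4.47% of WT in the greenhouse and 7.27% in sunlight.

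Each gene had to separate the genotypes within a condition, which fixes most of the order of the 4 groups. All 6 OE libraries lay below all 6 WT libraries for 98 of the 132 genes, as they did for 2.06% of the 20321 genes. For 50 genes the group means in CPM rose from OE greenhouse through OE sunlight and WT greenhouse to WT sunlight. For 34 the WT order was turned, with WT greenhouse highest, and for 30 both genotypes were lower in sunlight. The order OE sunlight, OE greenhouse, WT greenhouse, WT sunlight was found for 12 genes. In the other 6 genes an OE mean passed a WT mean of the other condition. Of these, 5 had a higher mean in OE sunlight than in WT greenhouse, and 1 had a higher mean in OE greenhouse than in WT sunlight. All OE sunlight libraries lay above all WT greenhouse libraries for 3 of the 132 genes. All OE greenhouse libraries lay above all WT sunlight libraries for 0.

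**Figure D2:**
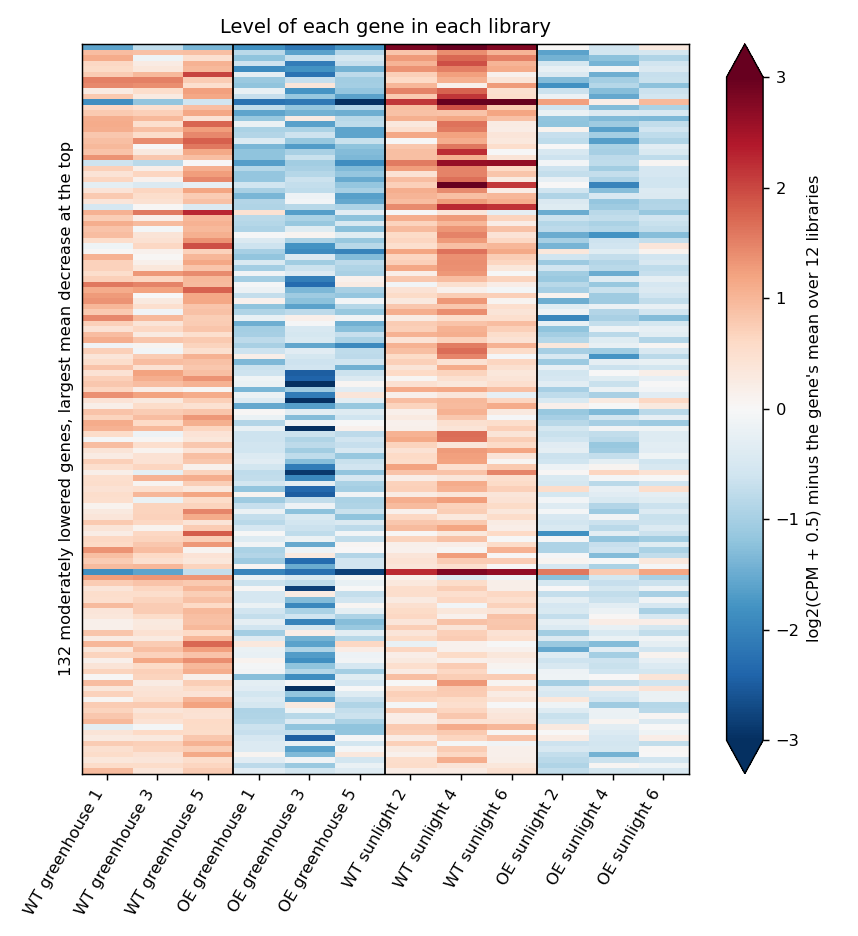
Level of each of the 132 genes (horizontal strips) in each of the 12 libraries (columns), as log2(CPM + 0.5) minus the gene's mean over all libraries, with the colour scale ending at -3 and 3. OE columns are mostly below and WT columns mostly above the mean, and a few strips are dark in the WT sunlight columns.

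The most abundant gene of the set in WT greenhouse was Potra000812g06463, at 205, 415 and 486 CPM in WT greenhouse 1, 3 and 5. It stood at 199, 51.5 and 172 CPM in OE greenhouse 1, 3 and 5. The groups did not overlap, but WT greenhouse 1 and OE greenhouse 1 were almost equal, and OE greenhouse 3 lay far below the rest. The mean difference of this gene was -1.11, and without OE greenhouse 3 and WT greenhouse 5 it was -0.68, outside the limits of the set. In sunlight the libraries 2, 4 and 6 had 227, 205 and 212 CPM in WT and 120.3, 119.8 and 155 CPM in OE. WT spread least there, and the absence of overlap was required by the rule. The limma fold change between OE and WT in sunlight was -0.73 ± 0.46 on the log2 scale (SE), with limma adjusted p = 0.827. In the greenhouse it was -1.53 ± 0.46 (SE), with limma adjusted p = 0.0796, so this gene was called in neither condition.

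Potra002877g20209, the next most abundant, separated the genotypes far more evenly. Its levels were 314, 300.3 and 409 CPM in WT greenhouse, against 60.4, 67.8 and 65.5 CPM in OE greenhouse. After sunlight they were 339, 331 and 416 CPM in WT and 159.6, 135 and 130.3 CPM in OE. All OE sunlight libraries lay above all OE greenhouse libraries, whereas the WT libraries of both conditions covered the same range. Its sunlight fold change in OE was 1.14 ± 0.14 on the log2 scale (SE), 2.2-fold, with limma adjusted p = 0.00507, and in WT it was 0.09 ± 0.16 (SE) with limma adjusted p = 0.815.

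The rule used the OE and WT contrasts, so the calls of the fit across all genes are given as a description. Of the 132 genes, 92 were called lower in OE in the greenhouse (limma adjusted p under 0.05), where 2.52% of all 22959 tested genes were. In sunlight 48 were called lower, against 0.884% of all tested genes. Both calls were made for 40 genes, the greenhouse call alone for 52, the sunlight call alone for 8 and neither for 32. A gene could thus meet the rule without passing the test in either condition. The greenhouse count was 36 without WT greenhouse 5, 60 without WT greenhouse 3 and 44 without both OE greenhouse 3 and WT greenhouse 5. It was 41 with only the 6 greenhouse libraries in the fit, where 129 of the 132 genes were tested. With the replicate number as a block it was 46 in the greenhouse and 29 in sunlight. The sunlight count was 20, 19 and 9 without OE sunlight 2, 4 and 6, and 29 without WT sunlight 2. Without OE greenhouse 3 it rose to 65 and the greenhouse count fell to 76, so the distance between the 2 counts depended on that library. Calls in either direction over all tested genes moved as well. In the greenhouse they went from 4.76% to 1.21% without WT greenhouse 5 and 2.01% without WT greenhouse 3. They were 1.42% without both libraries set apart, 1.43% with only the 6 greenhouse libraries and 3.8% without OE greenhouse 3. With the replicate block they were 1.89% in the greenhouse and 0.845% in sunlight. In sunlight they went from 1.24% to 0.675%, 0.627% and 0.511% without OE sunlight 2, 4 and 6. They were 0.832% without WT sunlight 2 and 2.12% without OE greenhouse 3.

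The rule used the values of all libraries, so the choice of genes can also shape comparisons outside its own contrasts. The first of these asked how the 132 genes differed between sunlight and greenhouse in WT leaves. As a set they did not move one way: the median log2 fold change was -0.04, against 0.01 over all tested genes, and 47.7% of the values lay above 0, against 51.1%. Higher in sunlight were 5 genes (3.79%), where 0.645% of all tested genes were called higher. Lower in sunlight were 2 genes (1.52%), where 0.749% of all tested genes were called lower. All WT sunlight libraries lay above all WT greenhouse libraries for 21 genes (15.9%, against 13.8% of tested genes), and below them for 19 (14.4%, against 11.5%). With 2 libraries in a group, groups overlap less often in all genes too. Higher without overlap were 34 genes without WT greenhouse 5 (25.8%, against 20.3% of tested genes), 40 without WT sunlight 6 (30.3%, against 19.5%) and 33 without both libraries set apart (25%, against 19.5%). Lower were 31 genes without WT greenhouse 1 (23.5%, against 17.9%) and 35 without WT sunlight 4 (26.5%, against 19.1%). Which direction was the more frequent thus depended on single libraries. Scaling by library totals moved the median of all tested genes to 0.23 and that of the set to 0.17, with 13 genes called and the counts without overlap at 34 (25.8%, against 28% of tested genes) and 10 (7.58%, against 4.29%). The median of the set was also above 0 without WT greenhouse 5 (0.04), without WT sunlight 6 (0.09) and without both libraries set apart (0.03). The 7 calls became 4 when WT greenhouse 3 or WT greenhouse 5 was left out, but 14 when OE greenhouse 3 was, which enters through the common spread. Over all tested genes the share called moved too, from 1.39% to 0.152%, 0.161% and 4.44% without these libraries in turn. With library totals it was 3.77%.

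The 5 genes that rose in WT did so steeply. Potra000539g03787 had 64.8, 78.0 and 141 CPM in WT greenhouse and 1093, 1588 and 1452 CPM in WT sunlight. The gene rose by 3.94 ± 0.35 on the log2 scale (SE), 15.4-fold, with limma adjusted p = 0.000892. The lowest sunlight library was several times the highest greenhouse library.

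Potra002245g17252 had 17.9, 28.5 and 42.8 CPM in WT greenhouse and 292, 642 and 901 CPM in WT sunlight. The gene rose by 4.26 ± 0.53 on the log2 scale (SE), 19.2-fold, with limma adjusted p = 0.00659. The spread within both groups was wide, and they stayed far apart.

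Potra001768g14372 went from near the detection limit, at 0.242, 0.804 and 0.359 CPM or 14 counts in all, to 15.04, 37.5 and 14.7 CPM in WT sunlight. The gene rose by 5.45 ± 0.84 on the log2 scale (SE), with limma adjusted p = 0.0164. This gene entered the set mainly through its sunlight levels, since in the greenhouse both genotypes were low. Only WT sunlight reached a mean of 2 CPM, with OE sunlight at 1.65 CPM, so its rise in WT is not separate from its choice. The call was lost without WT greenhouse 3 (limma adjusted p = 0.0715), without WT greenhouse 5 (0.0946), without both libraries set apart (0.0868) and with only the WT libraries in the fit (0.0644).

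The remaining pair, named after their values were seen, were Potra009997g26466 and Potra003770g22777. Potra009997g26466 rose from 20.7, 18.3 and 32.3 CPM in WT greenhouse to 95.8, 200.1 and 204 CPM in WT sunlight, with a change of 2.74 ± 0.35 on the log2 scale (SE) and limma adjusted p = 0.00754. Potra003770g22777 rose from 0.242, 0.574 and 0.287 CPM, or 11 counts in all, to 2.29, 4.54 and 4.23 CPM, with a change of 3.23 ± 0.55 on the log2 scale (SE) and limma adjusted p = 0.0237. It was no longer called without any 1 of the WT greenhouse libraries, with limma-trend (limma adjusted p = 0.0503) or without both libraries set apart (0.0803), and it was not tested without any 1 of the WT sunlight libraries. Of the WT groups only WT sunlight reached a mean of 2 CPM for Potra003770g22777, so its rise is not separate from its choice.

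Of the 2 genes that fell in WT, Potra001430g12070 had the tightest values. It stood at 22.1, 23.3 and 23.4 CPM in WT greenhouse and at 10.1, 6.61 and 8.21 CPM in WT sunlight, a change of -1.49 ± 0.17 on the log2 scale (SE) with limma adjusted p = 0.00483. Its WT level in sunlight was thus close to its OE greenhouse level of 7.73, 6.39 and 8.66 CPM, and OE sunlight was lower still at 3.52, 6.1 and 4.38 CPM. The change in OE was -0.74 ± 0.21 on the log2 scale (SE), with limma adjusted p = 0.0679. Potra001131g09932 had 6.53, 7.0 and 10.5 CPM in WT greenhouse and 3.84, 3.05 and 2.62 CPM in WT sunlight, a change of -1.39 ± 0.28 on the log2 scale (SE) with limma adjusted p = 0.036. That call was lost without any 1 of the 6 WT libraries, without any 1 of the OE sunlight libraries, without both libraries set apart and with limma-trend, at limma adjusted p values from 0.0511 to 0.167.

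**Figure D3:**
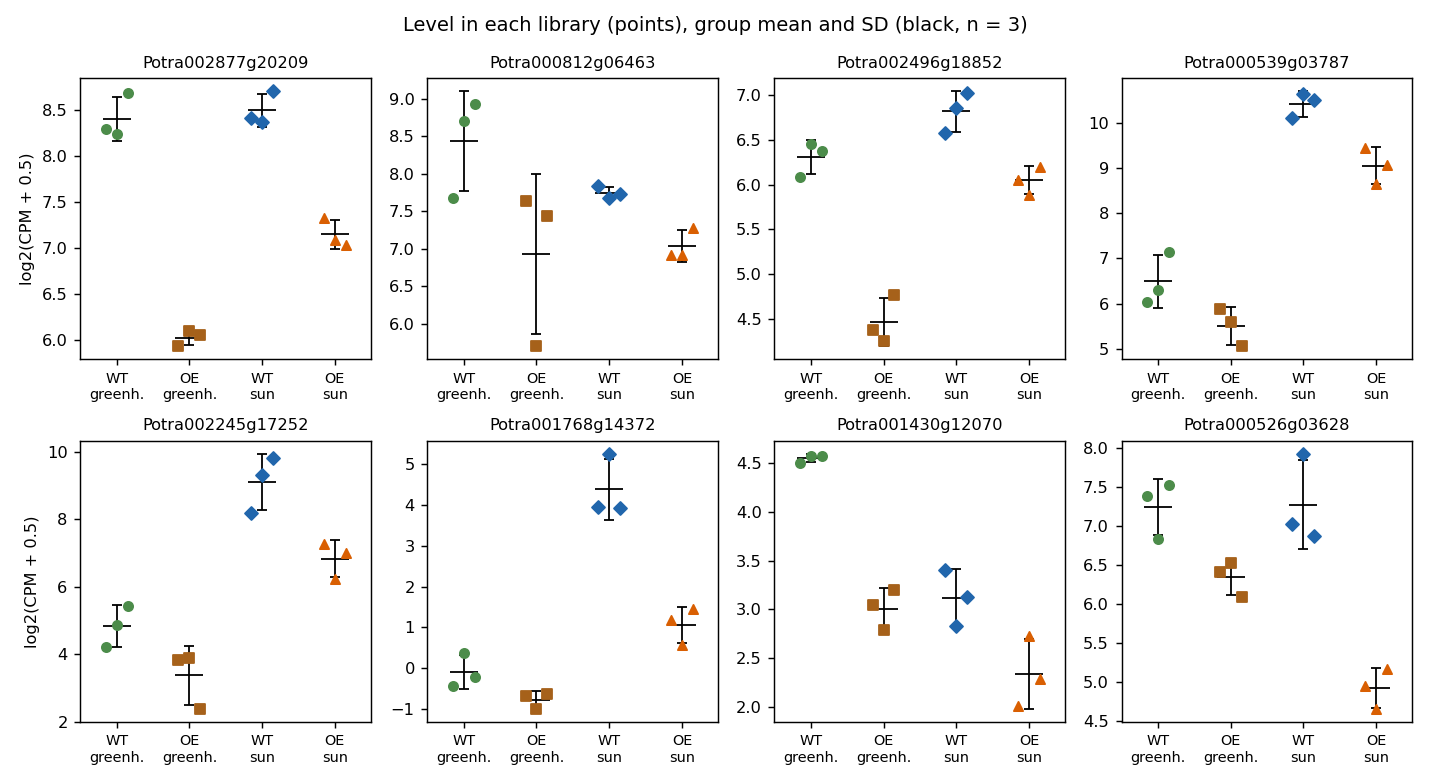
Level of 8 genes of the set in each library, as log2(CPM + 0.5), with the group mean and SD in black (n = 3). Potra000539g03787 and Potra002245g17252 are called higher in sunlight in both genotypes, Potra001768g14372 is called higher in WT, and Potra002877g20209 and Potra002496g18852 are called higher in OE. Potra001430g12070 is called lower in sunlight in WT, with lower values in OE too, and Potra000526g03628 is called lower in OE.

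The next comparison asked the same of OE leaves, in which the genes started from a lower level. Here the set leaned upwards: the median log2 fold change was 0.31, against 0.01 over all tested genes, and 71.2% of the values lay above 0, against 50.7%. Called higher in sunlight were 13 genes (9.85%), where 3.02% of all tested genes were. Called lower were 2 genes (1.52%), where 1.93% of all tested genes were. All OE sunlight libraries lay above all OE greenhouse libraries for 23 genes (17.4%, against 14.3% of tested genes) and below them for 7 (5.3%, against 14%). The 7 became 22 without OE greenhouse 3 (16.7%, against 19.1% of tested genes) and 21 without both libraries set apart (15.9%, against 18.6%), so that the low share rests largely on OE greenhouse 3. It was 12 without OE greenhouse 1 (9.09%, against 20.1%) and 11 without OE sunlight 2 (8.33%, against 20.7%). The 23 became 36 without OE greenhouse 3 (27.3%, against 17.8%), 36 without both (27.3%, against 18.2%), 35 without OE sunlight 2 (26.5%, against 20.1%) and 40 without OE sunlight 4 (30.3%, against 19.2%). The median was 0.17 without OE greenhouse 3, and also 0.17 without both libraries set apart. Calls numbered 15 in all, 10 without OE sunlight 2, 7 without OE sunlight 4, 4 without OE sunlight 6, 10 without WT greenhouse 3 and 5 with only the 6 OE libraries in the fit, where 118 of the 132 genes were tested. Over all tested genes the share called was 4.94%, and in the same order 2.73%, 0.775%, 0.506%, 2.91% and 0.212%.

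Called in both genotypes were Potra000539g03787 and Potra002245g17252, both higher in sunlight. Of the others called higher in WT, Potra001768g14372 changed by 4.06 ± 1.18 (SE) in OE, from 5 counts in OE greenhouse (limma adjusted p = 0.0701). Potra009997g26466 changed by 1.33 in OE (limma adjusted p = 0.0512) and Potra003770g22777 by 0.30 (limma adjusted p = 0.865). The absence of a call is thus not the absence of a rise in OE. In OE, Potra000539g03787 had 58.5, 47.9 and 32.8 CPM before sunlight and 696, 399 and 533 CPM after it, a change of 3.55 ± 0.32 on the log2 scale (SE) with limma adjusted p = 0.00108. Potra002245g17252 had 13.8, 14.4 and 4.69 CPM in OE greenhouse and 154, 74.5 and 129 CPM in OE sunlight, a change of 3.61 ± 0.51 on the log2 scale (SE) with limma adjusted p = 0.00643. In both genes each OE sunlight library lay above every WT greenhouse library, while all 3 lay below the WT sunlight libraries, as the rule required. Both calls were kept, in both genotypes, under each of the 19 alternatives tried.

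This pair carried much of the rise in the summed level. Together they made up 2.31% of the WT sum in the greenhouse but 24.8% after sunlight. Their shares of the OE sum were 3.06% before and 22.5% after. For the other 130 genes the WT sum was 5259 ± 1096 CPM before and 6033 ± 1144 CPM after sunlight (SD, n = 3 each). Their OE sum was 1814 ± 255 CPM before and 2283 ± 219 CPM after (SD, n = 3 each). The WT sums of the 130 genes overlapped between conditions, from 4362 to 6481 CPM before sunlight and from 5225 to 7342 CPM after it. Their OE sums overlapped too, from 1578 to 2084 CPM before and from 2037 to 2458 CPM after.

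The other 11 genes called higher in OE had log2 fold changes from 1.01 to 2.12 in OE and from -0.13 to 1.05 in WT, where none of them was called. Whether their effects differed between genotypes was tested as the difference between conditions, in which none was called. Lower in OE sunlight were Potra000526g03628 and Potra001419g12022. Potra000526g03628 had 84.7, 91.6 and 67.8 CPM in OE greenhouse and 30.4, 24.7 and 35.6 CPM in OE sunlight, a change of -1.44 ± 0.26 on the log2 scale (SE) with limma adjusted p = 0.0161. In WT it stood at 167, 114 and 183 CPM before sunlight and at 130.1, 243 and 116 CPM after it, ranges that overlap. Potra001419g12022 had 7.04, 9.15 and 7.61 CPM in OE greenhouse and 1.76, 3.92 and 3.07 CPM in OE sunlight, a change of -1.39 ± 0.27 on the log2 scale (SE) with limma adjusted p = 0.0196. Without OE sunlight 4 or OE sunlight 6 neither gene was called in OE, with limma adjusted p values from 0.0546 to 0.116. The call of Potra000526g03628 was also lost without both libraries set apart (0.054), and that of Potra001419g12022 with only the OE libraries in the fit (0.0669).

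**Figure D4:**
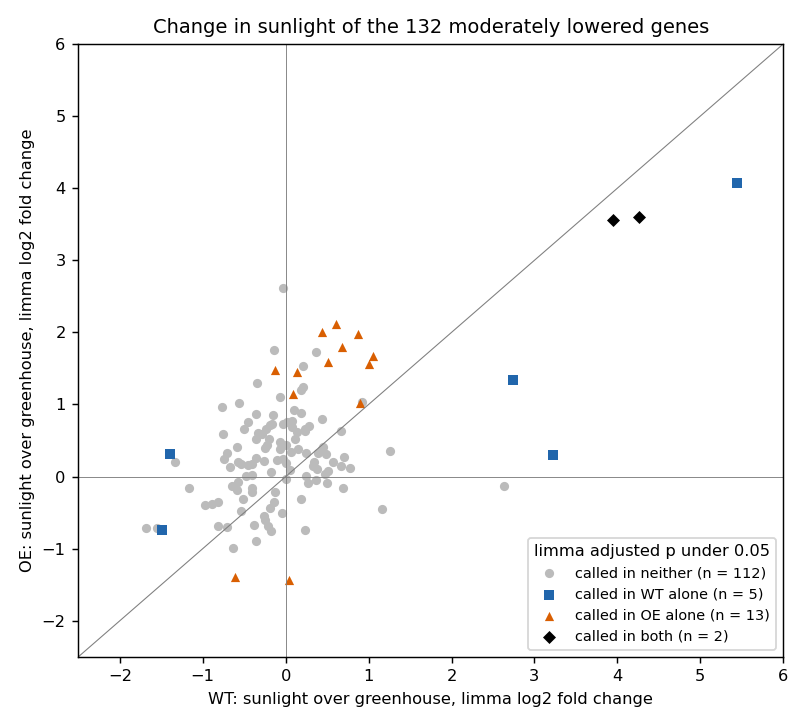
Sunlight over greenhouse log2 fold change of the 132 genes in WT (horizontal axis) and OE (vertical axis), with genes called at limma adjusted p under 0.05 marked by genotype. The bulk lies near 0 in WT and somewhat above 0 in OE, and 2 genes are called in both.

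The last comparison asked whether the OE effect differed between conditions, which is the same as whether the sunlight change differed between genotypes. The rule bounds both effects and so limits this difference in part. At limma adjusted p under 0.05 no gene of the set was called, as was the case for 0% of all tested genes. The smallest limma adjusted p was 0.817 in the set and 0.64 over all genes, and a limma-trend fit also called none. An unadjusted p under 0.05 was found for 22 of the 132 genes (16.7%), against 6% of all tested genes, and in 16 of the 22 the decrease was smaller in sunlight. The 22 genes became 14 without OE sunlight 6 and 15 without both libraries set apart. The count over all tested genes fell as well, from 1378 of 22959 to 1012 of 22908 and 796 of 22807. The median difference was 0.44 on the log2 scale. It was 0.29 without WT greenhouse 5, 0.22 without OE greenhouse 3, 0.11 without both and 0.19 with scaling by library totals, which moved the median of all tested genes from 0.00 to -0.25.

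The smallest unadjusted p values belonged to Potra002877g20209, described above, and Potra002496g18852. Potra002496g18852 had 67.6, 87.4 and 82.2 CPM in WT greenhouse, against 20.2, 18.5 and 26.7 CPM in OE greenhouse. In sunlight it had 94.8, 115 and 129.5 CPM in WT and 66.0, 58.6 and 72.9 CPM in OE. All OE sunlight libraries lay above all OE greenhouse libraries, and OE sunlight 6 lay above the lowest WT greenhouse library. Its difference in OE effect was 1.08 ± 0.24 on the log2 scale (SE) and that of Potra002877g20209 was 1.05 ± 0.21 (SE), both with limma adjusted p = 0.817.

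The strongly lowered genes are set beside the 132 here without a test. The 114 strongly lowered genes had a median sunlight fold change of 0.18 in WT and 1.28 in OE on the log2 scale. Of them 11 were called higher in WT and 22 in OE, and none was called lower in either genotype. Without overlap, 19.3% of them were higher and 4.39% lower in WT sunlight, where the set had 15.9% and 14.4%. In OE 43% of them were higher and 4.39% lower, where the set had 17.4% and 5.3%. Within the set, the 45 genes with a mean difference of -1.5 or below had medians of 0.18 in WT and 0.31 in OE, and the other 87 had -0.17 and 0.34. These medians were not tested against each other, and OE levels of the strongly lowered genes, at a median of 1.01 CPM in the greenhouse, rest on fewer counts.

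Within a group, the genes of the set tended to be high in the same library. WT sunlight 4 was the highest of its group for 91 of the 132 genes (68.9%), against 36.6% of all tested genes. WT greenhouse 5 was the highest of its group for 83 (62.9%), against 38.2%. Among the OE libraries the largest share was that of OE sunlight 6, with 61 genes (46.2%), against 28% of tested genes. The strongly lowered genes had the same WT libraries on top, with shares of 78.1% in WT sunlight 4 and 58.8% in WT greenhouse 5. The typical size was modest: the median deviation of the set from its group mean was 0.22 in WT sunlight 4 and 0.21 in WT greenhouse 5 on the log2 scale, against -0.01 and 0.02 over all tested genes. The part of the 32.2% of reads outside genes in WT greenhouse 5 was not tested, and in WT sunlight 4 that share was 7.74%, close to the 6.85% and 7.13% of its group.

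The spread between replicates was also wider than over all tested genes, as it was for the strongly lowered genes. The median within-group SD of log2(CPM + 0.5) over the set was 0.33 for WT leaves and 0.45 for OE leaves of the greenhouse, and 0.31 for either genotype after sunlight. Over all tested genes the greenhouse values were 0.18 for WT and 0.26 for OE, and the sunlight values 0.19 and 0.20. The strongly lowered genes had 0.43 for WT and 0.37 for OE in the greenhouse, with 0.54 and 0.41 in sunlight. The gap between the lowest WT and the highest OE library had a median of 0.67 in the greenhouse and 0.61 in sunlight, and a smallest value of 0.04 and 0.01, so single genes of the set separated the genotypes by very little.

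**Figure D5:**
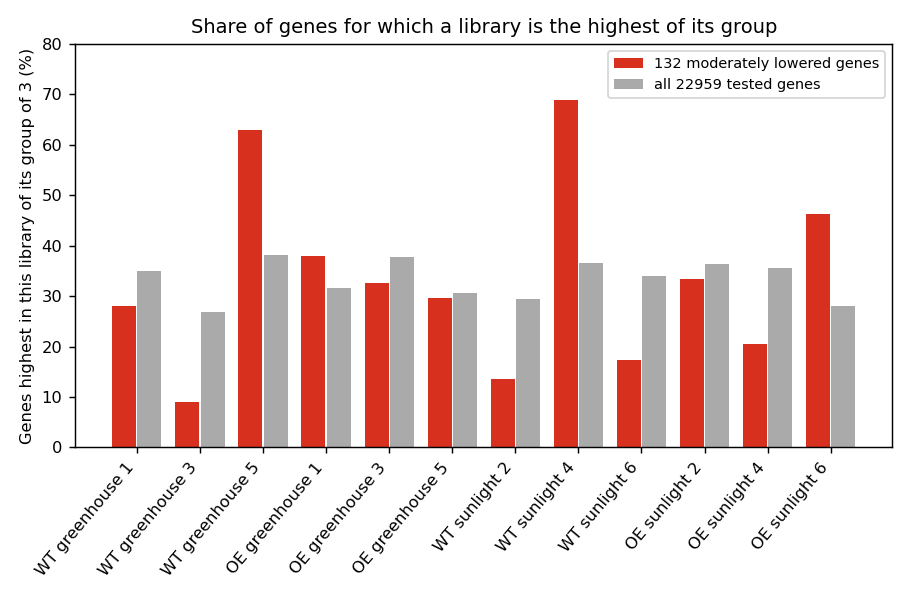
Share of genes, in percent, for which each library is the highest of its group of 3, for the 132 genes (red) and for all 22959 tested genes (grey). WT greenhouse 5 and WT sunlight 4 are the highest of their groups for 62.9% and 68.9% of the 132 genes.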

How the data were processed

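Per the labels' protocols, mRNA was purified with a MagJET kit and libraries were built with a NEBNext Ultra kit. Per the submitters' processing notes, TopHat2 2.1.1, Cufflinks and HTSeq 0.6.1 were used, with no role stated. Build, annotation and strand setting: not given in the sources used here. Each deposited file lists whole read counts by gene ID without normalization by the authors. Its 5 summary entries were left out of totals and tests. Counts of near-identical or overlapping genes are uncertain.

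The set, lists and tests were chosen with earlier results of these data known. TMM (trims of 30% and 5%) was written out in R 4.3.3, and the counts were fitted with limma 3.58.1 (voom, 4 group means over 12 libraries, robust empirical Bayes, Benjamini-Hochberg over all tested genes). Count-model packages were planned as alternatives and not run, because an automatic reading of the tab-separated files could not take the column as counts. Tested genes had at least 10 counts at the median depth (0.69 CPM) in 3 libraries and 15 in all. All 132 genes passed this filter. The fit was tested on simulated data.

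Fold changes are limma estimates, and differences are in mean log2(CPM + 0.5). A count of 0 allows up to 3 counts, between 0.104 and 0.48 CPM per library, for counting error only. Replicates are separate plants, and every pair within a group differed by more than counting error (chi-square over its degrees of freedom 12.7 to 74.4). Same-numbered WT and OE libraries did not deviate together (r from -0.50 to 0.07), so the numbers were not taken as pairs. Named genes are the 2 most abundant in WT greenhouse, 2 on each side of each limit, for sunlight in each genotype the 2 that rose and the 2 that fell most among called genes (at least 1 CPM in the higher group, no overlap), and the 2 with the smallest p for the difference between conditions. Exceptions are stated.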

Additional observations from a re-analysis of the deposited data

How the results depend on the processing

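The rule gave between 100 and 140 genes under other scalings, added constants and level limits, and between 118 and 151 without any 1 library. It gave 109 without OE greenhouse 3 and WT greenhouse 5, of which 94 belong to the 132, or 71.2% of the set. Without OE greenhouse 3 alone 100 of the 132 were kept, and with library totals 104. Calls among the 132 genes for OE against WT in the greenhouse numbered 44 without both libraries that stand apart (chosen after seeing the data), 41 with only the compared libraries and 46 with a replicate block, and from 36 to 97 without any 1 library. In sunlight they numbered 29 with a replicate block, and from 9 to 65 without any 1 library. As the replicate numbers do not pair the plants, the block is only another fit, and no such block can be set between greenhouse and sunlight, which share no number. Calls for sunlight in WT numbered 13 with library totals and from 4 to 14 without any 1 library (14, as 6 higher and 8 lower, without OE greenhouse 3). Calls for sunlight in OE numbered 5 with only the OE libraries and from 4 to 17 without any 1 library. The difference between conditions had 0 calls among the 132 genes under each alternative in which it was fitted, which leaves out the replicate block and the fits of compared libraries only. The causes of these changes were not tested, and the shares called over all tested genes moved as well. Over all values recomputed under the alternatives, 583 were labelled the same, 21 lost the call and 44 moved. For single genes and medians, the same meant an unchanged direction and side of the threshold, or a shift within the spread. For counts of genes it meant only a fixed ratio to the main count. The 583 thus include 100 genes by the rule, 68 greenhouse calls and the -0.68 of Potra000812g06463, which lies outside the limits. No named gene's value turned its sign. The median sunlight change in WT, -0.04, did so with library totals (0.17), without WT greenhouse 5 (0.04), without WT sunlight 6 (0.09) and without both libraries set apart (0.03). Count-model packages were not run. Depth limits the low genes: 28 of the 132 averaged under 1 CPM in OE greenhouse.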

Other observations

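The same limits with the sign turned (all OE libraries above all WT libraries in both conditions, and a mean difference from 1 to 2) were met by 226 genes, more than the 132 lowered ones. The IDs of the 132 genes carry 131 different stems before the letter g, so 2 of the genes share a stem. Another 2 share theirs with strongly lowered genes. One of these is Potra001768g14372, whose ID stem is that of Potra001768g14376, the gene just beyond the stronger edge of the set. What a shared stem stands for is not given in the files. The 2 genes did not follow each other in WT: the sunlight log2 fold change of Potra001768g14376 was -0.21 ± 0.54 (SE) with limma adjusted p = 0.888, against 5.45 ± 0.84 (SE) for Potra001768g14372 with limma adjusted p = 0.0164.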
